A study of Mus musculus with 24 samples.

Results

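The 33 genes described here carry glucose from the blood to lactate or into the mitochondrion, or belong to the response to low oxygen, and they were listed by name, with earlier results of these data known. All 33 were found among the 51912 genes of the deposited table. Tests were run on genes whose normalized count reached 10 in 4 or more of the 24 libraries, a limit passed by 32 of the 33 genes and by 16454 genes in all. The gene below this limit was Car9, a carbonic anhydrase on the cell surface, with values between 0 and 11.7. A normalized count is the number of reads assigned to a gene divided by 1 size factor per library, so it can be compared between libraries but depends on the length of the gene.

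Bulk RNA was sequenced from the dissected archicortex (ARK), the medial wall of the embryonic telencephalon that holds the dentate neuroepithelium (DNE) and the cortical hem (CH). Mutants were Sox9fl/fl;Sox1Cre embryos at E12.5 (libraries A9 to A12) and at E13.5 (A1 to A4) and Sox9fl/fl;NestinCre embryos at E13.5 (A17 to A20). Their controls carried the same Cre with wild-type Sox9, namely Sox9+/+;Sox1Cre at E12.5 (A13 to A16) and at E13.5 (A5 to A8) and Sox9+/+;NestinCre at E13.5 (A21 to A24). All 6 groups had 4 libraries and the mixed C57BL/6J;MF1 strain. In all libraries 1 of the Cre drivers was thus present, and no group had the floxed allele without a Cre. As the study describes its drivers, Sox1Cre deletes in all of the ARK, CH and DNE alike, and NestinCre at E13.5 in the DNE with little deletion in the CH. NestinCre mutants are therefore a model of deletion in a portion of the dissected tissue. The labels do not say whether libraries of 1 group came from separate litters, so that p-values measure the spread between libraries.

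Glycolysis splits glucose into pyruvate in the cytosol, and lactate dehydrogenase turns pyruvate into lactate when it is not taken into the mitochondrion. The pyruvate dehydrogenase kinases hold back the entry of pyruvate into the citric acid cycle. Under low oxygen the prolyl hydroxylases of the Egln family no longer mark the HIF factors for destruction, and HIF then raises the genes of glucose uptake, of glycolysis, of Pdk1 and of vessel growth. Neural progenitors of the early telencephalon are known to rely on glycolysis before vessels grow into the wall, and the shift to oxidative metabolism goes along with neuron formation.

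Sox9 itself was lower in all mutants. In Sox9fl/fl;Sox1Cre mutants at E13.5 its normalized counts were 3563, 2828, 3384 and 3677, against 5218, 5911, 5450 and 5731 in controls. Values were 3089, 2997, 3083 and 3369 against 5636, 4979, 4586 and 5406 in the NestinCre line, and 2785, 1733, 2593 and 1928 against 4391, 5265, 4237 and 4194 at E12.5. No mutant library reached the lowest control of its comparison. The log2 changes of −0.74, −0.71 and −1.02 passed in all 3 comparisons (limma, adjusted p = 0.0021, 0.0297 and 6.28e-05). The paper states that the deleted allele keeps exon 1, which is still expressed in mutants. Counts per gene include such reads and therefore do not measure the extent of the deletion. The call in the NestinCre line ended when any 1 of A17, A18, A19, A20, A21, A22 or A24 was left out (adjusted p of 0.0623 to 0.11, limma), with changes of −0.67 to −0.75, and with log2 Xist as a covariate (0.0617).

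The tissue label was checked with 12 genes of the archicortex and CH, such as Emx2, Lhx2, Wnt3a and Lmx1a. All 12 were detected in every group with no group mean under 10, and their summed normalized counts were between 48177 and 59268 in the 6 group means. Markers of other cells were present too. The 13 erythroid genes summed to between 106090 and 217620 normalized counts in the group means, led by Hbb-y in 5 of the 6 groups. The 10 meningeal genes, led by Col3a1, reached 31511 to 43538 and the 7 genes of the choroid plexus, led by Ttr, 22875 to 57838. Since the tissue was sequenced in bulk, fewer cells of a type and less RNA per cell cannot be told apart in any result below.

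Library A1, a Sox9fl/fl;Sox1Cre mutant of E13.5, stood apart from its group, with an array weight of 0.183 where a typical library has a value near 1. Xist, the RNA that silences the second X chromosome of females, was above 1000 in 11 libraries and at or below 6.41 in the other 13. It was high in 4 of 4 Sox1Cre controls at E12.5 and in 0 of 4 at E13.5, so that age and sex cannot be told apart in these controls. In mutants of the Sox1Cre line it was high in 2 of 4 libraries at each age (A10 and A11, A2 and A3), in NestinCre mutants in 2 (A18 and A20) and in NestinCre controls in 1 (A23). Reads were assigned both to Gapdh, Eno1 and Pgk1 and to near-identical copies of these genes elsewhere in the genome. The share assigned to each differed between libraries, as described below.

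The genes spanned a wide range of levels. Length here is that of all annotated exons of a gene together, over all its transcripts. It can exceed the length of the transcript expressed, and levels and ratios per kb depend on it. Per kb of exon, the mean normalized count over all libraries was highest for Pkm, which makes pyruvate in the last step of glycolysis, at 8440 per kb, and above 99.2% of the genes tested. Pgam1 (6550 per kb), Pgk1 (5283), Ldha (5138), Tpi1 (4321) and Gapdh (3593) followed, so that 5 of the 6 highest genes belong to the steps after aldolase and the other makes lactate. Values for Gapdh, Eno1 and Pgk1 count only the reads assigned to the gene itself.

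Within pairs of related genes 1 form prevailed per kb. Slc2a1, the glucose transporter of the blood-brain barrier and of most dividing cells, stood 9.26 ± 1.99 times (SD, n = 24 libraries) above Slc2a3, the high-affinity transporter of neurons, on the scale per kb, with a range of 5.57 to 12.51. Slc16a1, which moves lactate in either direction, was 6.74 ± 3.002 times as high per kb as Slc16a3, the low-affinity lactate exporter, over all libraries, but the ages differed, with group means of 3.12 and 3.44 at E12.5 and of 8.18 to 8.86 at E13.5. Per kb, Ldha exceeded Ldhb 2.35-fold ± 0.349 (SD, n = 24), with no library below 1.45. Hk1 was lower than Hk2 per kb in every library, at a mean ratio of 0.621 ± 0.135, with lengths of 8532 and 5969 bases. Before division by length the order differed between libraries, with Hk1 above Hk2 in A2 (1484 against 1233) and below it in A1 (1238.5 against 2022). Pfkl, the liver form of phosphofructokinase, and Pfkm, the muscle form, stood at a ratio of 1.30 ± 0.199 per kb, with Pfkl above Pfkm in all libraries and group means of 1.15 to 1.26 at E13.5 and of 1.45 and 1.58 at E12.5. Pfkp was the lowest gene past the limit at 10.8 per kb over 13401 bases, but its 3' end overlaps Pitrm1 on the other strand. Reads from that overlap cannot be told from those of Pitrm1 unless the counting used strand, which is not given in the sources used here.

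**Figure D1:**
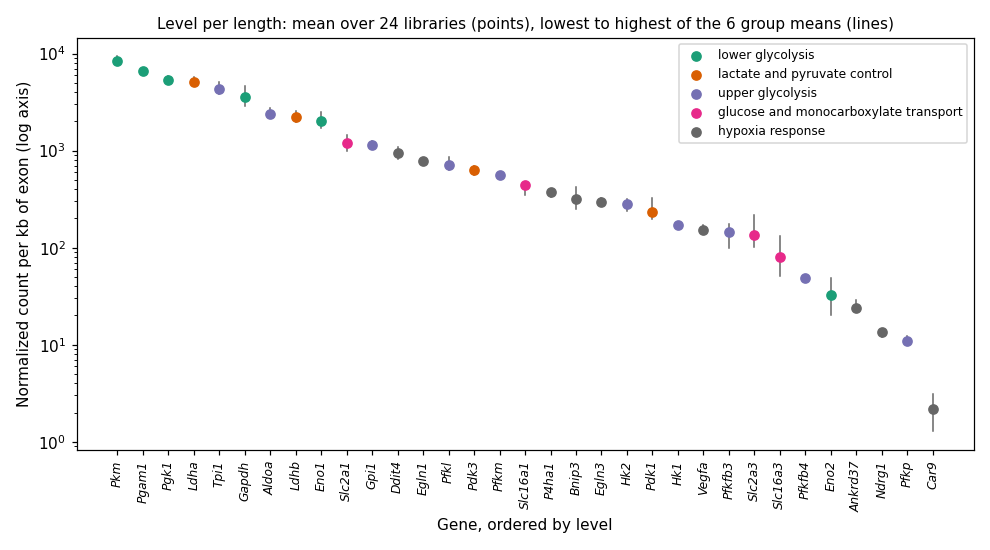
Normalized count per kb of exon (log axis) of the 33 genes in order of level, with all annotated exons of a gene as its length. Points give the mean over 24 libraries and lines run from the lowest to the highest of the 6 group means. Colours give the roles of the genes. The range runs from 8440 for Pkm to 2.15 for Car9, and the hypoxia-response genes lie below Eno1.

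Promoters of the members were searched for the core of the hypoxia-response element, since several of the genes, such as Ldha, Pdk1 and Vegfa, are known as HIF targets. The letters ACGTG and GCGTG were looked for on both strands of the 250 bases before each RefSeq start on GRCm38.p6, and the palindrome CACGTG, which other factors bind as well, counts on each strand. RefSeq starts were found for 31 of the 33 genes, with Slc2a3 and Ndrg1 not in the table used, and gave 44 promoters. ACGTG was present in 23 of 44 (52.3%) against 16.6% of all 32851 promoters, GCGTG in 24 (54.5%) against 28.2%, and either in 35 (79.5%) against 38.6%. The median GC content was 62.2% in the members and 52.4% over all promoters, so base composition differs between these sets as well. A match is a string of letters and not a shown binding site.

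Promoters of 6 genes whose values are described below are shown 5′ to 3′ on the strand of the gene, with the searched letters of either strand in capitals, to set promoters with several matches (of Ldha with 5, Pfkfb3 with 3, Slc16a3 with 2) beside 1 with a single match (of Pdk1) and those with no match (of Tpi1 and Eno2). Ldha, Pfkfb3 and Pdk1 have another RefSeq start each, whose promoters had 1, 1 and 0 matches, and of each pair the promoter with more matches is shown.
Slc16a3, chr11:120948817-120949066, plus strand: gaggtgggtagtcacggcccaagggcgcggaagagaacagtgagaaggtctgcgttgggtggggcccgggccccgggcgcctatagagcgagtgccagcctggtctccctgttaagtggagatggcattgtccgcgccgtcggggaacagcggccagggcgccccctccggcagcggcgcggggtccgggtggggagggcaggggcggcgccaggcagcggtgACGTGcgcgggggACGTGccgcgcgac
Pfkfb3, chr2:11502091-11502340, minus strand: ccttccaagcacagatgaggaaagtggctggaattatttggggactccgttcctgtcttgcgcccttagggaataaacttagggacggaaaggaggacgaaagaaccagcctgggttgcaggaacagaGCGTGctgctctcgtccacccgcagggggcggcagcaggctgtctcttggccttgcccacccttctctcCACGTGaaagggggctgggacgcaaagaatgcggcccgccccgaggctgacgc
Ldha, chr7:46845554-46845803, plus strand: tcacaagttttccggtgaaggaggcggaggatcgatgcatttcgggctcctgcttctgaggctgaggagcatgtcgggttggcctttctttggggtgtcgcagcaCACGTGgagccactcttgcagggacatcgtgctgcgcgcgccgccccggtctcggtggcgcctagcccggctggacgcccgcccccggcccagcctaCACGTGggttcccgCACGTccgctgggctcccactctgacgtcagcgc
Pdk1, chr2:71872974-71873223, plus strand: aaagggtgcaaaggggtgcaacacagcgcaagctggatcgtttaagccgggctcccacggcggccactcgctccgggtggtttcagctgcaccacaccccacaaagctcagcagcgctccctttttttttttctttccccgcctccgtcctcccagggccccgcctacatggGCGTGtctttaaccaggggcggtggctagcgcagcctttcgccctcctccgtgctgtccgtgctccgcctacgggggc
Tpi1, chr6:124814159-124814408, minus strand: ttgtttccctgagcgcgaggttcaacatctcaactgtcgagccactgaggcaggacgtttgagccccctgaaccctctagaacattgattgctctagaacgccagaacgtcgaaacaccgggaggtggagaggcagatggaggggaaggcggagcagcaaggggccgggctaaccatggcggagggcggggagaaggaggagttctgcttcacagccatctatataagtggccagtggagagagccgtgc
Eno2, chr6:124769674-124769923, minus strand: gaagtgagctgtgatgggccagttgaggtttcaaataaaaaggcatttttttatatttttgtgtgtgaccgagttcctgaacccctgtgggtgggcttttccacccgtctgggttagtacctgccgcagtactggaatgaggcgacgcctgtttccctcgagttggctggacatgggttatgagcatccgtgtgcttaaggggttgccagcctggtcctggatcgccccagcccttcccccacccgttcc

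The question of the E13.5 comparisons is which genes depend on Sox9 in the ARK as a whole (Sox1Cre) and which in the domain reached by NestinCre. In Sox9fl/fl;Sox1Cre mutants at E13.5, 0 of the 32 genes passed (limma on log2 of the normalized count + 1, Benjamini-Hochberg adjustment over 16454 genes, threshold 0.05), where 0.924% of all genes did. At an unadjusted p under 0.05 there were 7 of 32, where 11.7% of all genes were, and the other tools run called 0 (edgeR) and 2 (DESeq2, which called 2.18% of all genes). The median log2 change of the 32 genes was 0.02 and that of all genes −0.0046. The 4 mutants lay wholly outside the 4 controls for 3 of the 32 genes, Pdk3 and Gapdh below and Egln3 above, against 5.06% of all genes. Averaged over the 32 genes, log2 of the normalized count + 1 was 10.82 ± 0.09 in mutants and 10.82 ± 0.06 in controls (SD, n = 4). As log2 of the summed values, in which the most abundant genes weigh most, it was 17.28 ± 0.06 against 17.39 ± 0.09, a difference of −0.11.

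Pdk3, a kinase of pyruvate dehydrogenase that lies on the X chromosome, was the member nearest to the threshold. It had 1534, 1467, 1420 and 1373 normalized counts in mutants and 1642, 1573, 1852 and 1677 in controls. All 4 mutants were below all 4 controls, and the change of −0.22 (SE 0.055) had an adjusted p of 0.067 (limma) and an exact permutation p of 0.0286, the smallest that 4 against 4 libraries can give. Egln3, a HIF prolyl hydroxylase and itself a HIF target, had values of 845, 887, 889 and 863 against 771, 686, 725 and 717, with every mutant above every control. Its change was 0.27 (SE 0.070), with an adjusted p of 0.079 in limma.

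Vegfa, the growth factor that draws vessels into the neural wall, depended on library A1. Its values were 484, 770, 799 and 858 in mutants and 618, 552, 638 and 651 in controls, so that A1 was the lowest and the other 3 mutants the highest of the 8 libraries. With all libraries the change was 0.21 (adjusted p = 0.547, limma), and without A1 it was 0.40 (adjusted p = 0.0174). Without A1, Pdk3 passed as well (−0.25, adjusted p = 0.0275), which makes 2 of 32 members, where 3.1% of all genes passed without A1. In A1 the 10 endothelial genes, led by Kdr in every group, summed to 5175 normalized counts and the 7 choroid plexus genes to 7657, the lowest of all libraries on both sums, with no marker at 0. Their part in the Vegfa values was not tested.

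Slc2a1 was lowest of all libraries in A1 at 2697, and the same held within their groups for A10 (3858) and A19 (3063). These 3 libraries also had the lowest endothelial sums, 5175 in A1, 6141 in A10 and 7246 in A19, where every other library had 10067 or more. Whether the transporter of endothelial cells or of neural cells is measured there was not tested. In Sox9fl/fl;Sox1Cre mutants at E13.5 the values of Slc2a1 were 2697, 3990, 3570 and 3882 against 4789, 3799, 4240 and 3709 in controls, and the groups overlapped (−0.23, adjusted p = 0.517, limma). Without A1 the change was −0.11 (adjusted p = 0.669).

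Eno2, the neuronal enolase, had values of 222, 142, 213 and 343 in mutants at E13.5 and of 102, 159, 140 and 208 in controls. The groups overlapped, with A4 the highest, and the change of 0.57 (SE 0.218) did not pass (adjusted p = 0.283, limma) and was 0.35 without A4. Of the 8 hypoxia-response genes tested, 7 were above 0 in change and 1 below. Their median was 0.17, with a range from −0.06 (Egln1) to 0.35 (Ankrd37, 0.19 without A4). In limma 0 passed, and 1 of 8 had an unadjusted p under 0.05, where 11.7% of all genes did. Their mean log2 level was 9.20 ± 0.19 in mutants and 9.04 ± 0.06 in controls, so that the difference of 0.16 was smaller than the spread between the mutant libraries.

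In Sox9fl/fl;NestinCre mutants 0 of the 32 genes passed in limma, edgeR and DESeq2, 1 at an unadjusted p under 0.05 (6.47% of all genes), and 0.0669% of all genes passed in limma. The largest fall was that of Bnip3, a mitophagy receptor, with 517, 547, 573 and 639 against 582.2, 761.7, 595 and 726, and the groups overlapped (−0.22, adjusted p = 0.835, limma). Only Pgk1, of the 32 members, had groups that did not overlap, against 4.98% of all genes. Pgk1, which lies on the X chromosome, makes the first ATP of glycolysis. It had 10676, 11012, 11011 and 11070 normalized counts in mutants and 11322, 13513, 12647 and 12470 in controls. The change was −0.19 (SE 0.073), which did not pass (adjusted p = 0.614, limma). With the reads of its copy added, the groups overlapped (−0.14, adjusted p = 0.746, limma). The mean log2 level of the 32 genes was 10.77 ± 0.06 in mutants and 10.78 ± 0.10 in controls.

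When the change in NestinCre mutants was subtracted from that in Sox1Cre mutants, the difference passed for 0 of 32 members in limma, edgeR and DESeq2, with 0 at an unadjusted p under 0.05 (8.27% of all genes), and for 0.0425% of all genes in limma. Between the controls of the lines at E13.5, 0 of 32 members differed in limma, edgeR and DESeq2 (1 at an unadjusted p under 0.05, against 10% of all genes), where 0.243% of all genes did in limma.

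At E12.5 the pyruvate dehydrogenase kinase Pdk1 was lower in Sox9fl/fl;Sox1Cre mutants, and it was the 1 of 32 members that passed, where 0.723% of all genes did. Its normalized counts were 1867, 1402, 1817 and 1313 in mutants and 2777, 2323, 2466 and 2563 in controls. Every mutant was below every control, and the change was −0.68 on the log2 scale (SE 0.137), 1.60-fold lower (adjusted p = 0.0184, limma; exact permutation p = 0.0286). The 11 other settings, edgeR and DESeq2 among them, gave adjusted p-values from 0.000575 to 0.0498, all under the threshold. Leaving out 1 library ended the call for A10, A12, A13 and A16, with adjusted p-values of 0.0642, 0.0767, 0.0804 and 0.0555.

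The 4 controls of E12.5 were also above all 20 other libraries of the series, in which Pdk1 ranged from 1313 to 2079. These controls were the only group with Xist high in all libraries. In the 7 other libraries with high Xist, Pdk1 was between 1402 and 2038, and in the 13 libraries with low Xist between 1313 and 2079. None of these 7 was a Sox1Cre control, and the part of sex in the Pdk1 values was not tested. At E13.5 mutants of the Sox1Cre line had 1665, 1457, 1422 and 1551 against 2032, 1385, 2026 and 2079 in controls, where A6, the lowest control, overlapped the mutants (−0.29, adjusted p = 0.42, limma). In the NestinCre line the values were 1520, 1575, 1780 and 2038 against 1330, 1911, 1797 and 1639 (0.05, adjusted p = 1, limma). The difference between the ages in the Sox1Cre change of Pdk1 was 0.39 (SE 0.194) and did not pass (adjusted p = 0.685, limma), with 0.25 when A6 was left out.

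**Figure D2:**
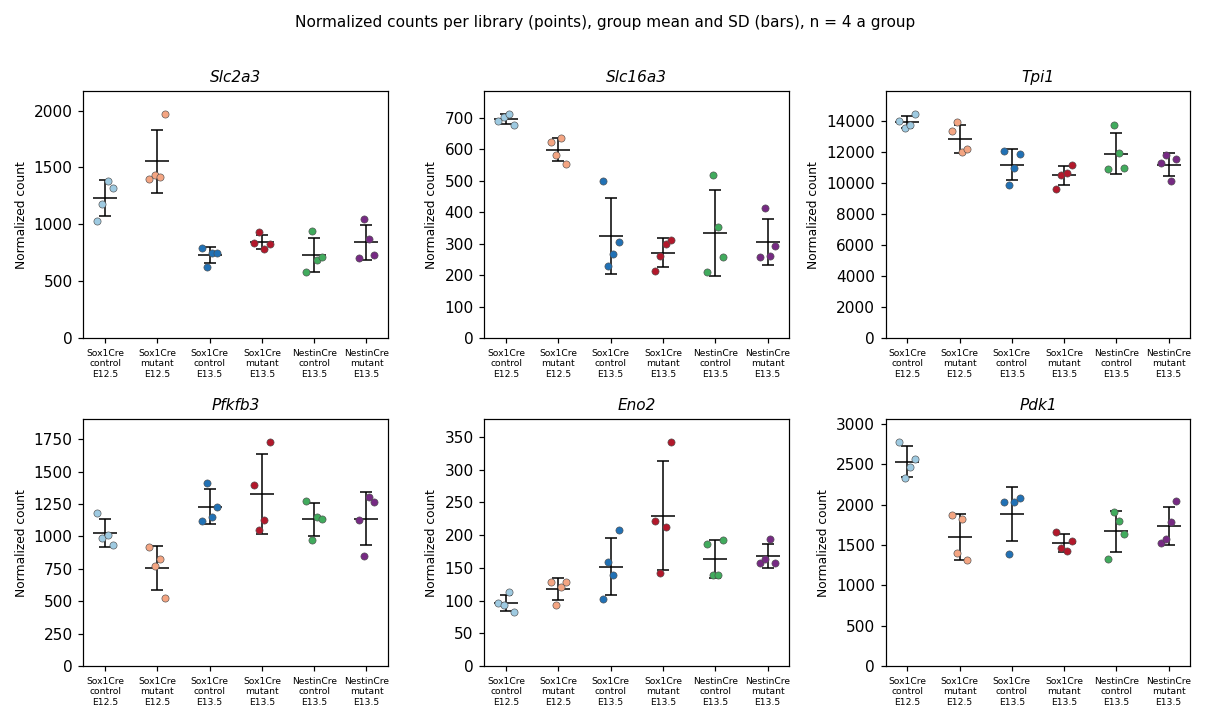
Normalized counts of 6 genes in each of the 24 libraries (points), with the group mean and SD (bars, n = 4 a group). Slc2a3 and Slc16a3 were lower at E13.5 than at E12.5 in Sox1Cre mutants and controls. Pfkfb3 and Eno2 passed as higher at E13.5 than at E12.5 in Sox1Cre mutants, and their rises in Sox1Cre controls did not pass. The 4 Pdk1 values of Sox1Cre controls at E12.5 were above all others.

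For 7 of the 32 genes the E12.5 groups of mutants and controls did not overlap, against 10.3% of all genes. Mutants were lower for Slc16a1, Slc16a3, Pfkfb3, Pgam1, Pdk1 and Egln1 and higher for Slc2a3. Slc16a1 had 1518, 1722, 1580 and 1383 against 2125, 2259, 1825 and 1752, a change of −0.36 with an adjusted p of 0.0759 (limma). Slc16a3 had 623, 582.1, 635 and 553 against 689, 701, 712 and 677, and the gap between the groups was small beside the spread at E13.5 (−0.22, adjusted p = 0.726, limma). Pfkfb3 makes fructose 2,6-bisphosphate, the activator of phosphofructokinase. It had 918, 768, 824 and 523 against 1178, 987, 1011 and 934, with A12 the lowest (−0.46, adjusted p = 0.223, limma, and −0.29 without A12). Slc2a3 went the other way, with 1398, 1431, 1415 and 1971 against 1032, 1178, 1383 and 1323, of which A12 was the highest (0.33, adjusted p = 0.309, limma, and 0.21 without A12).

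Of the 32 members, 22 were below 0 in change at E12.5 and 10 above, with a median of −0.08 where all genes had 0.0020, and 11 had an unadjusted p under 0.05, where 13.47% of all genes did. DESeq2 called 3 members, Pdk1, Slc16a1 and Pgk1, and 1.81% of all genes, and edgeR called 1 member and 0.644% of all genes. By role, the medians were −0.13 for the 4 transporters, −0.08 for the 10 genes of upper glycolysis, −0.18 for the 6 of lower glycolysis, −0.22 for the 4 of lactate and pyruvate and 0.03 for the 8 of the hypoxia response. The mean log2 level of the 32 genes was 10.87 ± 0.06 in mutants and 10.98 ± 0.03 in controls (SD, n = 4), a difference of −0.11 (−0.18 as log2 of the summed values). The highest mutant library reached 10.93 and the lowest control 10.94. On the same scale the other 4 groups, all of E13.5, had means from 10.77 to 10.82. Xist was low in 2 of these mutants (A9 and A12) and high in the 4 controls.

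The change in Sox1Cre mutants at E13.5 minus that at E12.5 passed for 0 of 32 members and for 0% of all genes in limma, with 1217 genes at an unadjusted p under 0.05, 0 genes called by edgeR and 20 by DESeq2. Among members 4 had an unadjusted p under 0.05 (7.4% of all genes), and edgeR and DESeq2 called 0. Egln3 was the nearest, with a difference of 0.39 (SE 0.100, adjusted p = 0.523, limma): at E12.5 its change was −0.12, with 855, 705, 817 and 709 in mutants against 820, 804, 815 and 906, and at E13.5 it was 0.27.

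**Figure D3:**
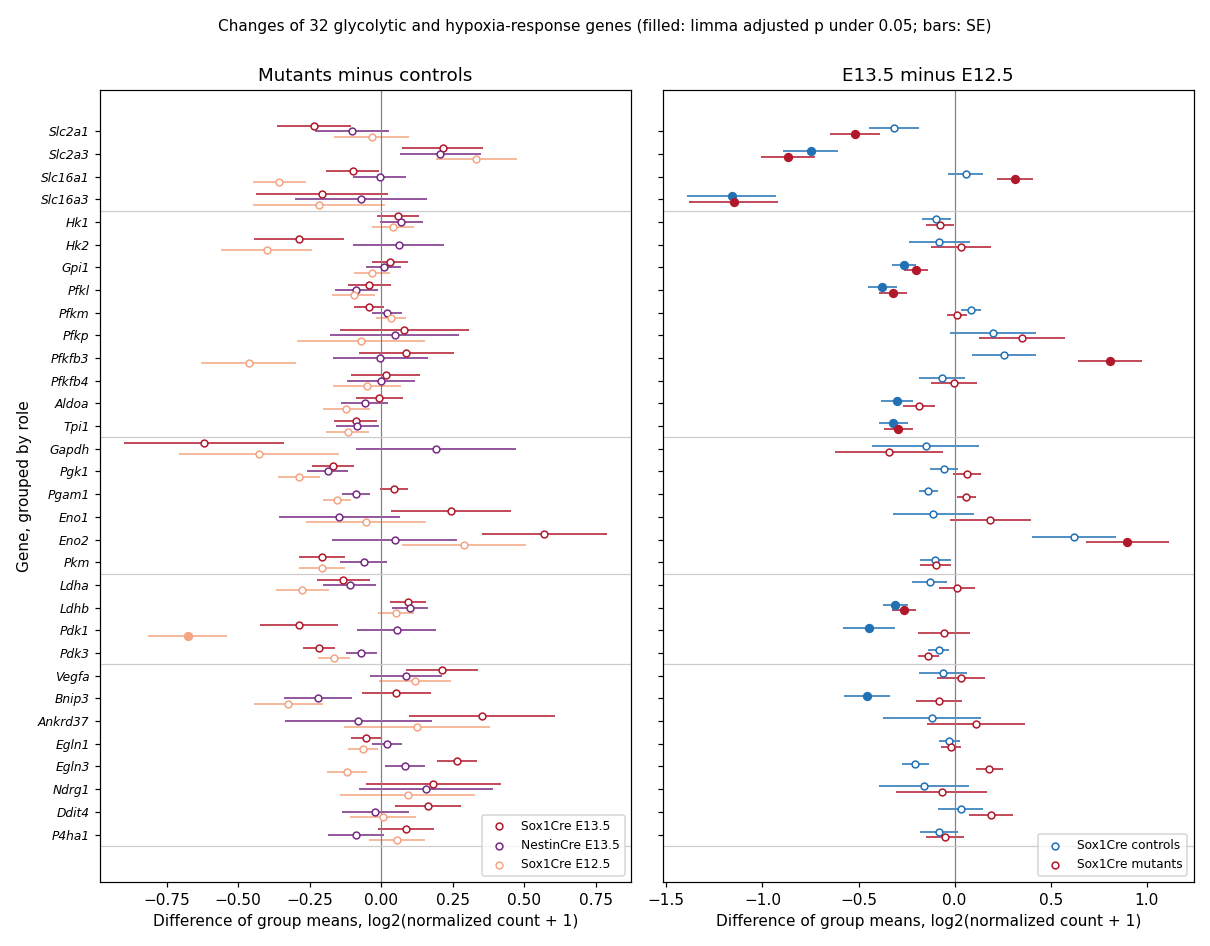
Differences of group means on the scale of log2(normalized count + 1) for 32 genes in order of role, with SE as bars and filled points for an adjusted p under 0.05 (limma); mutants minus controls at the left and E13.5 minus E12.5 at the right, with different ranges on the horizontal axes. Pdk1 at E12.5 is the only filled point at the left, and 9 genes in controls and 10 in mutants are filled at the right.

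More of these genes passed between ages than between genotypes. From E12.5 to E13.5, 9 of 32 members fell in Sox1Cre controls and 0 rose, where 11.5% of all genes passed and 5.17% passed as lower (limma). In Sox9fl/fl;Sox1Cre mutants 7 fell and 3 rose, where 25.9% of all genes passed, 12.1% as lower and 13.8% as higher. The 10 of 32 members in mutants are a share near that of all genes. The groups of the 2 ages did not overlap for 12 members in controls (18% of all genes) and for 10 in mutants (23.1% of all genes). No library is shared between these comparisons, but both use the same estimate of the spread of a gene, taken from all 24 libraries. In both, 6 members fell, Slc2a3, Slc16a3, Gpi1, Pfkl, Tpi1 and Ldhb, where 3.68% of all genes did. They are 66.7% of the 9 members that fell in controls and 85.7% of the 7 in mutants, and over all genes those that fell in both were 71.2% and 30.4% of the genes lower in controls and in mutants. In controls the ages differed in Xist, and with log2 Xist as a covariate 0 of 32 members and 0 of all genes passed there (limma). In mutants, where 2 of 4 libraries had high Xist at each age, 10 members and 26% of all genes passed with the same covariate.

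Slc16a3 fell furthest. In controls its normalized counts were 689, 701, 712 and 677 at E12.5 and 497, 230, 266 and 304 at E13.5. In mutants they were 623, 582.1, 635 and 553 at E12.5 and 213, 261, 300 and 312 at E13.5. The libraries of the 2 ages did not overlap in either genotype, and at E13.5 control A5 was the highest. The changes were −1.16 (SE 0.231, 2.24-fold lower, adjusted p = 0.00428, limma) in controls and −1.15 (2.22-fold lower, adjusted p = 0.00146) in mutants. Leaving out each library in turn kept both calls. In the NestinCre line at E13.5 the values were 257, 412, 260 and 292 in mutants and 209, 517, 353 and 257 in controls. Thus all 16 libraries of E13.5 (209 to 517) lay below all 8 of E12.5 (553 to 712), which held for no other member, and for 2.72% of all genes in 1 direction or the other. The 2 libraries highest in Slc16a3 at E13.5, A22 and A5, had erythroid sums of 193374 and 171862 normalized counts, and A17 and A23, with Slc16a3 at 257 and 353, had 177852 and 174564. The part of blood in these values was not tested.

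The glucose transporter Slc2a3 had 1032, 1178, 1383 and 1323 normalized counts in E12.5 controls and 794, 629, 747 and 746 at E13.5. In mutants it had 1398, 1431, 1415 and 1971 at E12.5 and 839, 930, 783 and 824 at E13.5. The ages did not overlap in either genotype. It fell 1.68-fold in controls (log2 change −0.75, adjusted p = 0.00352, limma) and 1.82-fold in mutants (−0.87, adjusted p = 0.000359), and no library decided the call in mutants, whose adjusted p-values reached at most 0.00232 when 1 was left out. Slc2a1 fell in mutants from 5171, 3858, 5683 and 5543 to 2697, 3990, 3570 and 3882 (−0.52, adjusted p = 0.00625, limma), where A10 at E12.5 overlapped the E13.5 libraries. With the 8 libraries of this comparison fitted alone the call ended (adjusted p = 0.0599). In controls all libraries of E13.5 were below those of E12.5 (5017, 5312, 5123 and 5056 at E12.5), but the change of −0.32 did not pass (adjusted p = 0.12). Slc16a1 rose in mutants, from 1518, 1722, 1580 and 1383 to 2263, 1832, 1852 and 1776 (0.31, adjusted p = 0.0159, limma), and did not pass without A1 (adjusted p = 0.0629) or without A12 (0.068). In controls its change was 0.06.

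Of the 10 genes of upper glycolysis, 4 fell in controls, where 5.17% of all genes did, and 3 in mutants, where 12.1% did. Tpi1, triose phosphate isomerase, had 13950, 13506, 13701 and 14429 in controls at E12.5 and 12038, 9821, 10936 and 11842 at E13.5. Mutants had 13308, 13875, 11990 and 12162 at E12.5 and 9619, 10480, 10615 and 11157 at E13.5. Each E13.5 library was below each E12.5 library of its genotype, with changes of −0.32 in controls (adjusted p = 0.0105, limma; 0.0505 without A6) and −0.29 in mutants (adjusted p = 0.00725). Pfkl, which commits glucose to glycolysis, fell by 0.38 in controls (from a mean of 5679 ± 270 to 4377 ± 251, SD, n = 4) and by 0.32 in mutants (from 5317 ± 414 to 4263 ± 407), with adjusted p-values of 0.00428 and 0.00383. Gpi1 fell by 0.26 and by 0.20, the latter with an adjusted p of 0.0203 that rose to 0.0572 without A9 and 0.0753 without A10 (limma). Aldoa fell in controls by 0.30, a call that ended without A6, A15 or A16 (adjusted p of 0.0532 to 0.0962), and had a change of −0.19 in mutants (adjusted p = 0.103, and 0.0262 without A4). Hk1, Hk2, Pfkm, Pfkp and Pfkfb4 passed in neither, with changes between −0.09 and 0.35, the latter that of Pfkp in mutants, which was 0.09 without A10.

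Pfkfb3 rose in mutants with age. It had 918, 768, 824 and 523 at E12.5 and 1399, 1049, 1130 and 1731 at E13.5, with no overlap, a change of 0.81 (SE 0.166, 1.75-fold higher, adjusted p = 0.00168, limma). In controls it had 1178, 987, 1011 and 934 at E12.5 and 1120, 1416, 1153 and 1231 at E13.5, which overlapped (0.26, adjusted p = 0.337). The difference between these changes, 0.55 (SE 0.235), did not pass (adjusted p = 0.63, limma), so the rise was not shown to differ between the genotypes.

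Of the 6 genes of lower glycolysis none fell, where 5.17% of all genes did in controls and 12.1% in mutants. Eno2 rose in mutants, where 13.8% of all genes did. Its normalized counts were 129, 93.1, 121 and 129 at E12.5 and 222, 142, 213 and 343 at E13.5 in mutants, with no overlap (0.90, SE 0.218, 1.87-fold higher, adjusted p = 0.00501, limma). In controls it had 96.3, 92.5, 113 and 82.7 at E12.5 and 102, 159, 140 and 208 at E13.5, where A5 overlapped the earlier libraries (0.62, adjusted p = 0.0692, and 0.0175 without A5). Pkm, Pgam1 and Pgk1 did not pass, with changes of at most 0.14 in size in either genotype. Gapdh alone had changes of −0.15 in controls and −0.34 in mutants, and −0.16 and −0.25 with the reads of its copies added (adjusted p of 0.361 and 0.0901, limma). Eno1 alone had −0.11 in controls and 0.19 in mutants (−0.11 without A1), and with its copies added −0.16 and −0.19 (adjusted p of 0.201 and 0.078), so that in mutants the copies turned the sign.

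Ldhb, which favours the turn of lactate into pyruvate, fell from 3784, 4207, 3579 and 3997 to 3536, 3003, 3104 and 2939 in controls and from 4080, 3872, 3878 and 4274 to 3416, 3384, 3314 and 3279 in mutants. No E13.5 library reached an E12.5 library of its genotype, and the changes were −0.31 and −0.26 (limma, adjusted p = 0.00501 and 0.00466). Ldha did not pass, with changes of −0.13 and 0.01. Pdk1 fell in controls by 0.45 (adjusted p = 0.0397, limma), a call that ended without A6, A8, A13, A14, A15 or A16 in turn (adjusted p of 0.0533 to 0.16). It had a change of −0.06 in mutants.

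Of the 8 hypoxia-response genes, Bnip3 fell in controls, where 5.17% of all genes did. It went from 985, 786, 1004 and 1007 to 656, 588, 690 and 824 (−0.46, adjusted p = 0.0183, limma), and A14 at E12.5 overlapped the later libraries. The call ended without A6, A15 or A16 (adjusted p of 0.053 to 0.0782). In mutants it went from 799, 810, 787 and 625 to 618, 690, 715 and 832 (−0.08, adjusted p = 0.659). Vegfa, Ankrd37, Egln1, Egln3, Ndrg1, Ddit4 and P4ha1 passed in neither genotype, where 11.5% of all genes passed in controls and 25.9% in mutants. Ddit4, an mTOR inhibitor, and P4ha1, a collagen prolyl hydroxylase, had changes between −0.08 and 0.19.

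Markers of other cells and tissue domains changed with age at the same time. The summed erythroid markers were 212710 ± 19824 normalized counts in controls at E12.5 and 118090 ± 39922 at E13.5 (SD, n = 4), and 10 of 13 of these genes fell, where 5.17% of all genes did. In mutants the sums were 217620 ± 15845 and 106090 ± 32561, with 9 of 13 lower, against 12.1% of all genes, and Hbb-bs higher. Neuron markers went from 25887 ± 842 to 38040 ± 7304 in controls, with 7 of 10 higher, against 6.33% of all genes, and from 25152 ± 1247 to 39026 ± 9314 in mutants, with 8 of 10 higher, against 13.8%. Among them Map2 was the most abundant, and no erythroid or neuron marker was at 0 in any group. Of the 12 archicortex and CH genes, 4 fell in controls (5.17% of all genes), and 5 fell and 5 rose in mutants (12.1% and 13.8% of all genes). Wnt3a, a defining gene of the CH, had changes of −0.83 and −1.21. The part of these cells in the changes of the glycolytic genes was not tested.

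**Figure D4:**
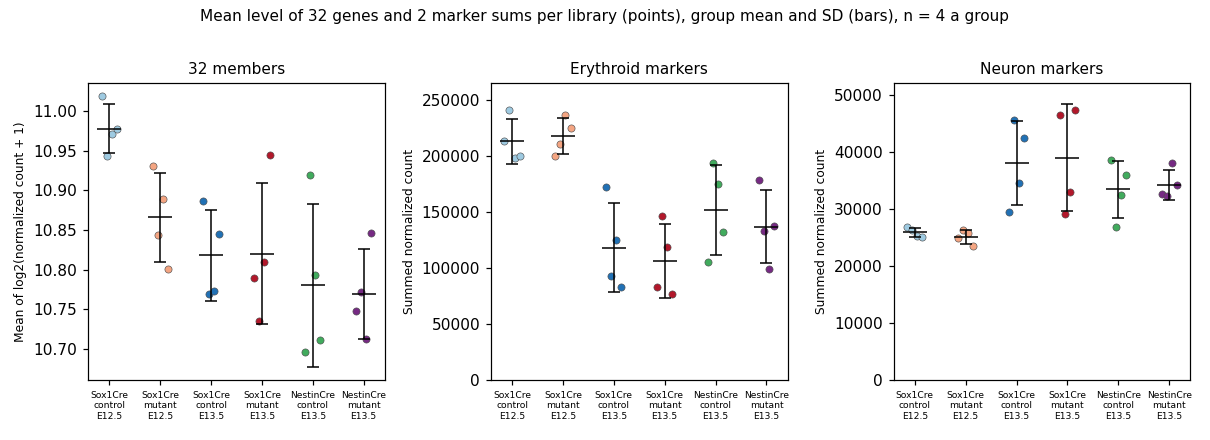
Mean of log2(normalized count + 1) over 32 genes (left) and the summed normalized counts of 13 erythroid (middle) and 10 neuron markers (right) in each of 24 libraries, with group mean and SD (bars, n = 4 a group); the left axis does not start at 0. The 4 Sox1Cre controls of E12.5 had member means from 10.94 to 11.02, a range that only A4 of the other libraries reached, and the erythroid sums were 198073 or more in all E12.5 libraries and at most 193374 at E13.5.

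The values of Gapdh, Eno1 and Pgk1 need to be read with those of their copies. A copy was defined here as a gene without positional overlap that shares at least 100 stretches of 50 bases with the member and has a mean normalized count of at least 10. The processed pseudogene Gm13394 (chr2:28933610-28934609, minus strand, GRCm38) aligned with all 999 coding bases of Gapdh, with 1 mismatch. Gm5537 (chr3:58102996-58104247, minus strand) aligned with the 1251 coding bases of Pgk1 with 0 mismatches, and Gm4735 (chr2:80837141-80838442, plus strand) with those of Eno1 with 5 mismatches in 1302. A further copy of Eno1 is the gene Eno1b. The stretches of 60 coding bases around a mismatch are shown with the differing base in capitals, to let a reader see how alike the coding sequences are. For Pgk1 the first 60 coding bases are shown, in which there is no mismatch. Untranslated sequence is not shown.
Gapdh, coding bases 326 to 385: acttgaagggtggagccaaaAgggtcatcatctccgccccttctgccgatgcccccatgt
Gm13394: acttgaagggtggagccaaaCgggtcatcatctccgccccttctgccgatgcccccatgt
Eno1, coding bases 706 to 765: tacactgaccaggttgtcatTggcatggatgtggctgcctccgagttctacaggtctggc
Gm4735: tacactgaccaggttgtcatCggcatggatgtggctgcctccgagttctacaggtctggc
Pgk1, coding bases 1 to 60: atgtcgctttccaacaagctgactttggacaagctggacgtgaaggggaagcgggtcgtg
Gm5537: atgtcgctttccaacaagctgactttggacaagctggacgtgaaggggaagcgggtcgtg

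Gapdh, the enzyme that makes NADH in glycolysis, fell into 2 sets of libraries. In Sox9fl/fl;Sox1Cre mutants at E13.5 its normalized counts were 8831, 15136, 15159 and 8186, and those of Gm13394 were 10998, 9.68, 22.9 and 10085. In their controls Gapdh had 21023, 17424, 15782 and 15921, and Gm13394 was between 14.7 and 24.6. Thus in A1 and A4 the copy was above the gene, and in the other 6 libraries it was near 0. Gm13394 was also at 10363 or more in A18, A19, A21, A22 and A24 of the NestinCre line, where it again exceeded Gapdh, and in A9 and A12 at E12.5, where it stayed just below Gapdh (11127 against 11481 and 11079 against 11367), which made 9 libraries of the 24. All 4 NestinCre controls except A23 were among them, and no Sox1Cre control.

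With all copies added, Gapdh ranged from 15869 to 24592 over the 24 libraries, 1.55-fold, and the share assigned to the gene itself from 38.9% to 95.5%. The change in Sox1Cre mutants at E13.5 was −0.62 for the gene alone (adjusted p = 0.392, limma), with no overlap of the groups, and −0.04 with the copies added (adjusted p = 0.934), with overlap. At E12.5 it went from −0.43 to 0.05, and in the NestinCre line from 0.19 to −0.01.

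For Eno1, the enolase of dividing cells, the gene alone had 22433, 8152, 14280 and 8639 in Sox1Cre mutants at E13.5 and 11775, 9892, 9823 and 10045 in controls, a change of 0.24 with an adjusted p of 0.719 (limma). Leaving out A1 turned it to −0.05 (adjusted p = 0.901). The share assigned to Eno1 was 94.96% in A1 and between 28.7% and 54.2% in the other libraries. Eno1b, at 17.3 in A1 and at 4945 or more in all other libraries, and Gm4735, at 1173 in A1, went the other way. With the copies added the mutants had 23625, 27059, 26550 and 29398 and the controls 36549, 32020, 32562 and 33495. All mutants were then below all controls, and the change was −0.34 (SE 0.079, adjusted p = 0.0397, limma), the opposite direction to that of the gene alone with all libraries. Since each mutant was below each control, leaving out A1 could not bring about an overlap, so the overlap says nothing about the part of A1. The addition was chosen after the values of Gapdh and Eno1 had been seen. With copies added the change at E12.5 was −0.31 (adjusted p = 0.0751), again with no overlap, and −0.18 in the NestinCre line (adjusted p = 0.734), with overlap.

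Pgk1 held between 64.3% and 76.3% of the sum with its copy in all libraries, and its changes altered little, to −0.18 (adjusted p = 0.217, limma) in Sox1Cre mutants at E13.5 and −0.26 (adjusted p = 0.0641) at E12.5. At E12.5, however, A10 (12530) was above A14 (12289) and A16 (12443) for the gene alone, and with the copy added all mutants (at most 16861) were below all controls (at least 17872, exact permutation p = 0.0286). Pgk1 lies on the X chromosome, and at E12.5 Xist was high in all controls and low in mutants A9 and A12. The part of sex in the Pgk1 values was not tested. Gpi1, Ldhb, Pgam1 and Pkm held 91.3% or more of the sum with their copies in every library. Which of the reads came from a copy that is transcribed and which were assigned to it by sequence cannot be told apart from counts per gene.

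**Figure D5:**
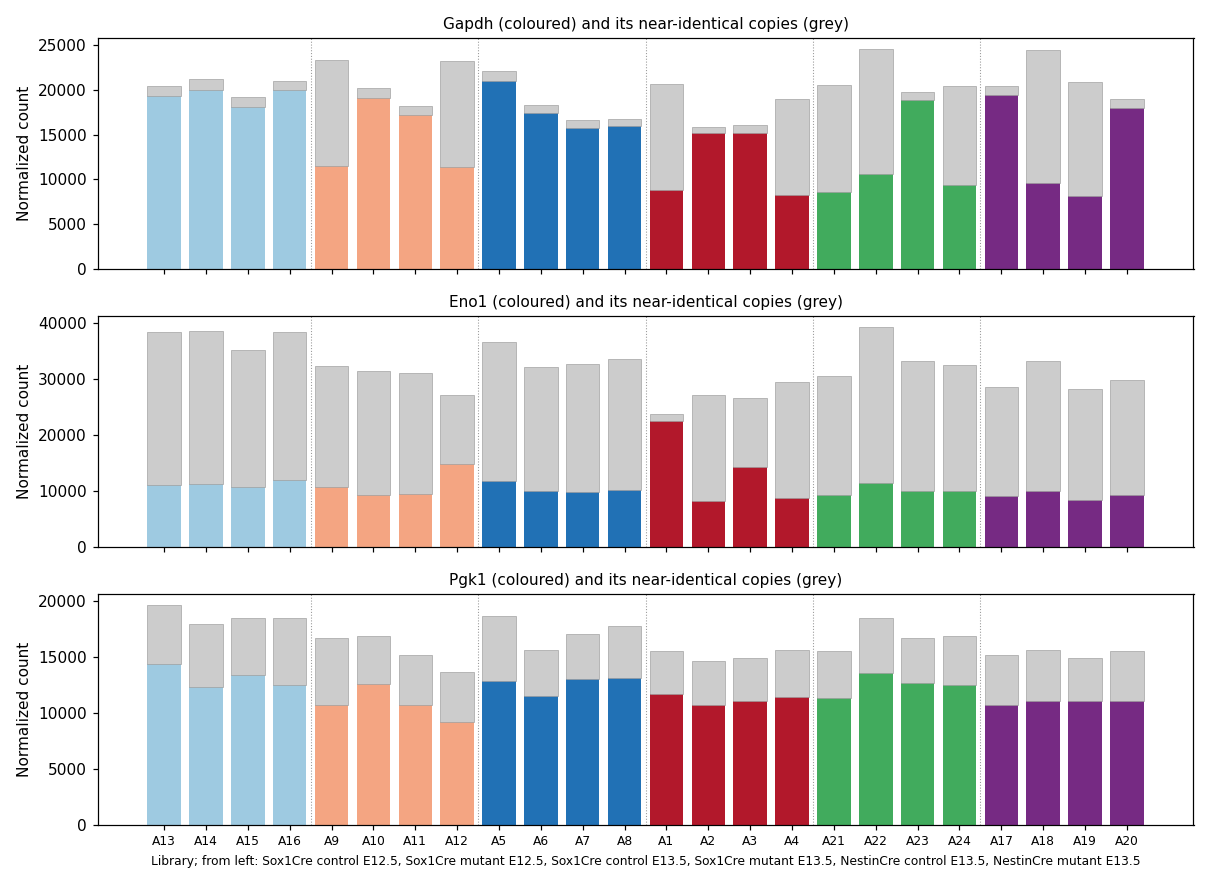
Normalized counts of Gapdh, Eno1 and Pgk1 (coloured by group) and of their near-identical copies (grey), stacked, in each of the 24 libraries. The grey share of Gapdh is large in 9 libraries and small in 15, and Eno1 in A1 holds 94.96% of its sum.

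Genes of the same pathways outside the 33 were taken from lists written by name. In the Sox1Cre mutants at E13.5 and in the NestinCre mutants, 0 of 24 other glycolytic and glycogen genes, 0 of 17 regulators of HIF, 0 of 38 other hypoxia-response genes, 0 of 14 genes of pyruvate entry, 0 of 7 of the pentose phosphate pathway and 0 of 20 of the citric acid cycle passed (limma). At an unadjusted p under 0.05 there were 2, 3, 5, 3, 1 and 3 of them in Sox1Cre mutants and 0, 1, 0, 2, 1 and 1 in NestinCre mutants, where 11.7% and 6.47% of all genes were. edgeR called 0 in all lists of both comparisons, and DESeq2 called 1 gene of the pentose phosphate pathway and 1 of the citric acid cycle in Sox1Cre mutants and 0 otherwise. At E12.5, 2 of the 38 hypoxia-response genes fell in mutants, Ak4 and Bhlhe40, and 1 of the 20 citric acid cycle genes, Sucla2, where 0.723% of all genes passed. edgeR called 2 and 1 genes of these lists and 0 of the others, and DESeq2 called 2 and 1, and in addition 1 of the 24 other glycolytic and glycogen genes and 1 of the 7 pentose phosphate genes, where it called 1.81% of all genes.

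Ak4, a mitochondrial adenylate kinase, had 998, 890, 880 and 682 in E12.5 mutants and 1366, 1186, 1178 and 1117 in controls, with no overlap (−0.50, adjusted p = 0.0353, limma). Bhlhe40, a transcription factor known as a HIF target, had 551, 398, 569 and 283 against 725, 635, 678 and 696, also without overlap (−0.65, adjusted p = 0.0273). Sucla2, a subunit of succinyl-CoA ligase, had 1330, 1376, 1352 and 1328 against 1624, 1617, 1474 and 1520 (−0.21, adjusted p = 0.0238). All mutants were below all controls for each of these 3 genes. Leaving out 1 library kept the call of Ak4 in 1 of 8 fits (all but A9 ended it, adjusted p of at most 0.148), of Bhlhe40 in 3 of 8 (A10, A13, A14, A15 and A16 ended it, at most 0.0999) and of Sucla2 in 4 of 8 (A9, A12, A13 and A14 ended it, at most 0.106). With log2 Xist as a covariate Bhlhe40 and Sucla2 no longer passed (limma, adjusted p of at most 0.163 and 0.0809 over the alternatives). At E13.5 Bhlhe40 had 611, 604, 616 and 583 in Sox1Cre mutants and 770, 776, 706 and 724 in controls, again without overlap (−0.30, adjusted p = 0.408).

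With age, 5 of the 24 other glycolytic and glycogen genes fell in controls and 3 rose (33.3%, where 11.5% of all genes passed), and 6 fell and 4 rose in mutants (41.7%, against 25.9%). Aldoc, the aldolase of astrocytes and radial glia, rose furthest of those that passed. It had 2848, 2261, 2318 and 2400 in controls at E12.5 and 5295, 8182, 7782 and 9367 at E13.5. In mutants it went from 2143, 829, 1943 and 269 to 8739, 5217, 7089 and 9684. The ages did not overlap, and the changes were 1.61 (adjusted p = 0.0188, limma, a call that ended without A6 or A8, at most 0.061) and 2.93 (adjusted p = 0.000184, at most 0.00116 with 1 library left out). Bpgm, which makes 2,3-bisphosphoglycerate, fell by 0.44 and by 0.37, and Gbe1, the glycogen branching enzyme, by 0.49 and by 0.61. Gys1, a glycogen synthase, fell by 0.26 in controls, and G6pc3, a glucose-6-phosphatase, and Slc2a4, the insulin-responsive glucose transporter, fell in mutants by 0.27 and by 0.52. With 1 library left out, Bpgm kept its calls in both genotypes, whereas in controls Gbe1 lost its call without A6, A8 or A14 (adjusted p of at most 0.0853, limma). Of the 17 regulators of HIF, 4 fell in controls (23.5%, against 11.5% of all genes) and 7 fell and 2 rose in mutants (52.9%, against 25.9%). Cited2, which competes with HIF for its coactivators, fell by 0.59 and by 0.94, and Hif1an, the hydroxylase that blocks HIF activity, by 0.35 and by 0.45. Hif3a, a further HIF subunit, fell by 0.84 in controls and by 0.57 in mutants (adjusted p = 0.0031 and 0.00965, limma), and Ep300, a coactivator of HIF, by 0.16 and by 0.19, of which the call in controls ended without A8, A15 or A16 (at most 0.0836). Arnt2, a partner of HIF, and Siah2, a ubiquitin ligase that acts on the Egln proteins, fell in mutants by 0.44 and by 0.42. In controls the call of Cited2 ended without A6, A8, A15 or A16 (adjusted p of at most 0.0851, limma), and with log2 Xist as a covariate 0 of these genes passed there.

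Of the 38 other hypoxia-response genes, 3 rose and 3 fell with age in controls (15.8%, where 11.5% of all genes passed) and 5 rose and 4 fell in mutants (23.7%, against 25.9%). Gys1, which is also in the list of glycolytic and glycogen genes, is among those that fell in controls. Kdm3a, a histone demethylase known as a HIF target, fell by 0.24 in controls (adjusted p = 0.0129, limma, and up to 0.0578 without A6) and by 0.21 in mutants. Zfp395 fell by 0.35 and by 0.31, and Insig2, which restrains sterol synthesis, rose by 0.23 and by 0.30, of which the call in controls ended without A8 or A14 (at most 0.0564). Ak4 and Bhlhe40, lower in mutants at E12.5, rose with age in mutants by 0.41 and by 0.48, and both calls ended without A12 (adjusted p of 0.05 and 0.0586, limma). Of the 14 genes of pyruvate entry, 1 rose in controls (7.14%) and 3 in mutants (21.4%), where 6.33% and 13.8% of all genes rose. In mutants Pdhb, a subunit of pyruvate dehydrogenase, had a change of 0.16 (adjusted p = 0.00795, limma). Pdp2, a phosphatase of pyruvate dehydrogenase, rose by 0.29 in controls, a call that ended without A6, A8, A15 or A16 (at most 0.0652). In mutants Mpc1, of the mitochondrial pyruvate carrier, rose by 0.47, which ended without A4 or A12 (at most 0.0603), and the phosphatase Pdp1 by 0.34, which ended without A1, A4, A9 or A12 (at most 0.157). Of the 7 pentose phosphate genes, Tkt, a transketolase, rose in both (0.28 and 0.48) as the 1 that passed in controls (14.3%) and 1 of 2 in mutants (28.6%), and its call in controls held in 1 of the 8 fits with a library left out (A5 left out), with adjusted p-values of at most 0.122. Pgd, phosphogluconate dehydrogenase, fell by 0.18 in mutants. Of the 20 citric acid cycle genes, 1 passed in controls (5%, against 11.5% of all genes) and 4 in mutants (20%, against 25.9%), smaller shares than among all genes. They include Idh3a, a subunit of isocitrate dehydrogenase, with a change of 0.21 in mutants, Sdhc, a subunit of succinate dehydrogenase, with −0.20, and Sucla2 with 0.17. Idh1, the isocitrate dehydrogenase of the cytosol, rose by 0.23 in controls, which ended without A8 (adjusted p = 0.0603, limma), and by 0.17 in mutants, which ended without A1, A4, A10, A11 or A12 (at most 0.114).

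Among the markers of other cells, 1 gene passed between mutants and controls in the 3 comparisons, Vim of the 8 radial glia genes in Sox1Cre mutants at E13.5 (−0.26, adjusted p = 0.0289, limma), and edgeR and DESeq2 called 1 gene of that list there and 0 of the other marker lists. With age, when 11.5% of all genes passed in controls and 25.9% in mutants, 3 of 6 pericyte genes rose in controls and 1 in mutants, led in size by Rgs5 (1.61 and 1.03). Of the 8 radial glia genes, 0 passed in controls in limma and edgeR and 2 in DESeq2, which called 14.4% of all genes (4 at an unadjusted p under 0.05, against 26.7% of all genes), and 4 rose and 1 fell in mutants. Of the 8 microglia genes 1 fell in mutants, and of the 8 immediate early genes tested, which respond to handling of tissue, 1 rose in each genotype. The sums of the 9 immediate early genes found went from 3306 ± 263 to 4304 ± 473 in controls (SD, n = 4). In mutants these sums went from 2815 ± 233 to 3876.5 ± 459. Of the 10 meningeal genes 3 rose in controls, and 2 rose and 3 fell in mutants, where 2 of the 7 choroid plexus genes rose as well. The choroid plexus sums went from 22875 ± 5531 to 45112 ± 18350 in controls and from 33045 ± 9309 to 57838 ± 34734 in mutants. The part of handling or of the choroid plexus in the changes of members was not tested. Of the 10 endothelial genes 0 passed with age in limma, edgeR and DESeq2, with 0 at an unadjusted p under 0.05 in controls and 1 in mutants (37.9% of all genes).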

How the data were processed

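RNA from dissected ARK of 24 embryonic libraries, 4 in each of 6 groups, was prepared with KAPA mRNA HyperPrep and sequenced on an Illumina HiSeq, per the study's methods. The authors trimmed reads with Trimmomatic (0.36), aligned them with STAR (2.5.2a) and counted them per gene with RSEM (1.2.31) on Ensembl GRCm38. The strand setting is not given in the sources used here. The deposited values are a normalized signal, RSEM counts that the authors divided by a DESeq2 size factor per library. All values were whole multiples of 1 read within a tolerance of 0.01, which gave depths of 16163560 to 49445219 assigned reads per library (median 23016925), and the recovered reads were used for the count tests. Of 51912 gene identifiers, 51719 were named from GENCODE M21, and 0 columns lacked a sample.

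Groups were taken from the labels. The values were tested as log2(value + 1) with limma (3.58.1, trended variance) in R (4.3.3) with 6 group means over 24 libraries (18 residual degrees of freedom) and Benjamini-Hochberg adjustment over 16454 genes at a threshold of 0.05. A fold change is on that scale and understates the change of low genes. There were 8 comparisons, and single genes were also given an exact permutation test. Counts and levels were computed in Python (3.11.15). Each result was recomputed with DESeq2 (1.42.0) and edgeR (4.0.16) on recovered reads, with log2 Xist added as a covariate, with weights per library, with quantile normalization, with only the libraries compared, with a pseudocount of 0.5 or 5, with a limit of 100 on the mean or none at all, and without each library in turn. Adding the values of near-identical copies was chosen after seeing the data. Steps were tested on simulated data.

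The 33 members were all named. Up to 6 genes of each pathway list were named, those with the smallest p among the genes that passed in any comparison. The lists were other glycolytic and glycogen genes, HIF regulators, other hypoxia-response genes, pyruvate entry, the pentose phosphate pathway and the citric acid cycle, and markers of erythroid, endothelial, pericyte, meningeal, choroid plexus, microglial, neuronal, radial glial and archicortical cells and of immediate early genes. Members and lists were chosen with earlier results of these data known.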

Additional observations from a re-analysis of the deposited data

Results flagged for a closer look

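In 18 of 192 sets of 4 libraries, 1 library lay far from the other 3 by Dixon's criterion, which chance meets in about 1 in 20 sets. In Sox1Cre mutants of E12.5, A12 was far above its group in Slc2a3 (1971 normalized counts) and P4ha1 (1894) and far below it in Bnip3 (624.6), and A10 was high in Pdk3 (1703). In Sox1Cre mutants of E13.5, A4 was high in Pfkm (2051) and Pfkfb4 (288.8), and A1 in Slc16a1 (2263). In the Sox1Cre controls of E13.5, A6 was low in Pfkl (4005), Pgk1 (11500) and Pdk1 (1385), and A5 was high in Eno1 (11780). In those of E12.5, A14 was low in Pfkl (5276) and Bnip3 (785.9), and A16 was high in Egln3 (906.1). In the NestinCre line, A17 was low in Pgk1 (10680) and A18 high in Pkm (43300) among mutants, and A24 was high in Hk1 (1484) and A23 low in Ddit4 (1282) among controls.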

How the results depend on the processing

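Of 5528 changes of members under an alternative, 5454 stayed on their side of the threshold, 43 no longer passed, 30 passed in addition and 1 reversed. Of the 5454, 343 had another sign, with neither value passing. The reversed one was Eno1 in Sox1Cre mutants at E13.5, −0.34 with the copies added. Causes were not tested. In Sox1Cre mutants at E13.5, 152 genes passed, against 44 with the libraries of the comparison alone, 962 with array weights, 358 in DESeq2 and 90 to 510 with 1 library left out (510 without A1, 90 without A3, 101 without A4 and 95 without A6). Members past the threshold there were 3 with array weights (Vegfa, Egln3 and Pdk3), 2 in DESeq2, 1 with the copies added (Eno1) and 0 to 2 with 1 library left out. In NestinCre mutants, 11 genes passed, against 5 with no filter, 5 with a mean of at least 100, 17 with array weights, 2 with the Xist covariate, 5 in edgeR, 37 in DESeq2 and 2 to 7 with 1 library left out, fewer for each library. At E12.5, 119 genes passed, against 76 with the libraries of the comparison alone, 577 with array weights, 298 in DESeq2 and 50 to 139 with 1 left out (75 without A12, 50 without A13, 68 without A14 and 74 without A16). Members there were 3 with array weights and 3 in DESeq2, and 0 to 1 with 1 library left out (0 without A12, A13 or A16, and Pgk1 without A10). With age in controls, 1892 genes passed, against 3244 with array weights, 0 with the Xist covariate and 794 to 2629 with 1 left out (794 without A6, 872 without A8, 1153 without A14, 1200 without A15 and 1158 without A16), with 0 members under the covariate and 5 to 12 with 1 left out (5 without A6). With age in mutants, 4263 passed, against 2133 with the libraries of the comparison alone and 2948 to 4725 with 1 left out, with 9 to 11 members. Between controls of the lines, 40 passed, against 22 with a mean of at least 100, 108 with array weights, 152 in DESeq2 and 11 to 31 with 1 left out (12 without A6, 18 without A7, 20 without A8, 17 without A21 or A22 and 11 without A23). For the difference between lines, 7 passed, against 13 with the libraries of the comparison alone, 369 with array weights, 98 in DESeq2 and 5 to 144 with 1 left out (144 without A1 and 13 without A17). For the difference between ages, 0 passed, against 20 in DESeq2 and 0 to 1 with 1 left out (1 without A10 or A12). The difference in the mean level of all 32 members, taken as log2 of their summed values, was −0.11 in Sox1Cre mutants at E13.5 and −0.18 at E12.5. No paired analysis was possible because each library has a number of its own. Car9 was under the limit for testing, and whether more depth would change that was not tested.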
